A study of Danio rerio with 12 samples.

Results

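The transcripts described here are 10 genes of the core circadian clock, chosen by symbol: per1a, per1b, per2, per3, nr1d1, nr1d2a, nr1d2b, arntl1a, arntl2 and cry5. All 10 were found among the 14581 genes of the expression table, and all 10 were among the 9190 genes that passed a filter of at least 1 FPKM in at least 3 libraries. RefSeq now lists arntl1a and arntl2 as bmal1a and bmal2. The RNA came from livers of adult zebrafish given β-estradiol, the main ovarian estrogen, or its solvent DMSO daily for 6 weeks, starting at 3 months of age. The 12 libraries form 4 groups of 3: male estradiol, male DMSO, female estradiol and female DMSO. All fish carried the wild-type genotype and were kept in individual tanks. Whether every library stands for its own fish is not stated in the labels, so p-values reflect only how far these libraries differ, which may be technical. The question addressed is whether the groups differ in the state of the clock. The time of day at which livers were taken is not given in the labels used here, so differences in level are reported and no phase in hours is estimated.

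The circadian clock is a feedback loop of transcription. BMAL proteins, encoded by the arntl genes, pair with CLOCK or NPAS2 and switch on the period (per) and cryptochrome (cry) genes and the REV-ERB genes (nr1d1, nr1d2a, nr1d2b). PER and CRY proteins then repress BMAL and CLOCK, while REV-ERB receptors repress and ROR receptors activate the arntl genes, so that REV-ERB and BMAL transcripts peak at opposed times of day. In zebrafish, tissues such as liver hold clocks that respond directly to light, and per2 and cry5, which encodes the (6-4) photolyase that repairs ultraviolet damage, are among the genes switched on by light.

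Values are fragments relative to transcript length and library size (FPKM), as estimated by the authors, so levels can be compared between genes per length. The depth of the libraries is unknown. Sums of FPKM ran from 304905 to 786203 in male estradiol, 660052 to 731829 in male DMSO, 485549 to 1217095 in female estradiol and 791666 to 906620 in female DMSO. Of 16 hepatocyte marker genes in the table, 16 reached 1 FPKM in every library of both estradiol groups, 14 in male DMSO, where tfa and apoa2 were listed at 0, and 15 in female DMSO, where tfa was listed at 0. Their summed level ran from 21505 to 107591 FPKM in male estradiol, against 102955 to 124748 in male DMSO. In females it ran from 34136 to 49541 under estradiol, against 74571 to 96689 under DMSO, and these sums did not overlap. The mean log2(FPKM + 1) of the same 16 genes overlapped in both sexes. It ran from 8.92961 to 11.75 in male estradiol, against 9.8257 to 10.1618 in male DMSO. In females it ran from 9.26129 to 10.2507 under estradiol, against 10.0047 to 10.3374 under DMSO. Of 20 oocyte markers, 14 reached 1 FPKM in every male estradiol library, 0 in male DMSO, 1 in female estradiol and 9 in female DMSO. The summed level of that list ran from 82.0 to 5764 FPKM in male estradiol, 0.328 to 3.48 in male DMSO, 10.4 to 7476 in female estradiol and 21.5 to 435 in female DMSO. In male DMSO the oocyte markers zp2.5, zp3a.2, h1m, nanos3 and zglp1 were listed at 0 in all 3 libraries, and h1m was listed at 0 in all 12. For 14 exocrine pancreas markers the sums were 109 to 582 FPKM in male estradiol against 5340 to 7345 in male DMSO. Those of females were 111 to 608 FPKM in female estradiol against 2429 to 11151 in female DMSO. Intestine markers summed to 95.5 to 4757 FPKM in female DMSO and to 6.75 to 210.1 over the other groups. The sums of red blood cell markers ran from 55.9 to 1215 FPKM over all groups, and those of leukocyte markers from 41.7 to 553. In bulk tissue, fewer cells of a type and less RNA per cell cannot be told apart. The numbers in the library titles run from 19 to 24 in the estradiol groups and from 7 to 12 in the DMSO groups, so any difference that goes with these numbers and the treatment cannot be told apart.

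Across all libraries the clock transcripts were of low to moderate abundance. The REV-ERB gene nr1d2a had the highest median, 9.71 FPKM, with a range of 0.483 to 88.7, and nr1d2b followed with a median of 5.82 and a range of 2.11 to 17.8. Then came arntl1a (median 3.32 FPKM), per1b (3.30), cry5 (2.52), per2 (2.36), nr1d1 (1.24), per3 (1.06), arntl2 (0.551) and per1a (0.474). The ranges of neighbours in this order overlapped throughout. The filter was passed through several groups for most members, but arntl2 reached 1 FPKM in 3 male estradiol and 2 female estradiol libraries and in 0 DMSO libraries, so it was tested only because it is high under estradiol.

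**Figure D1:**
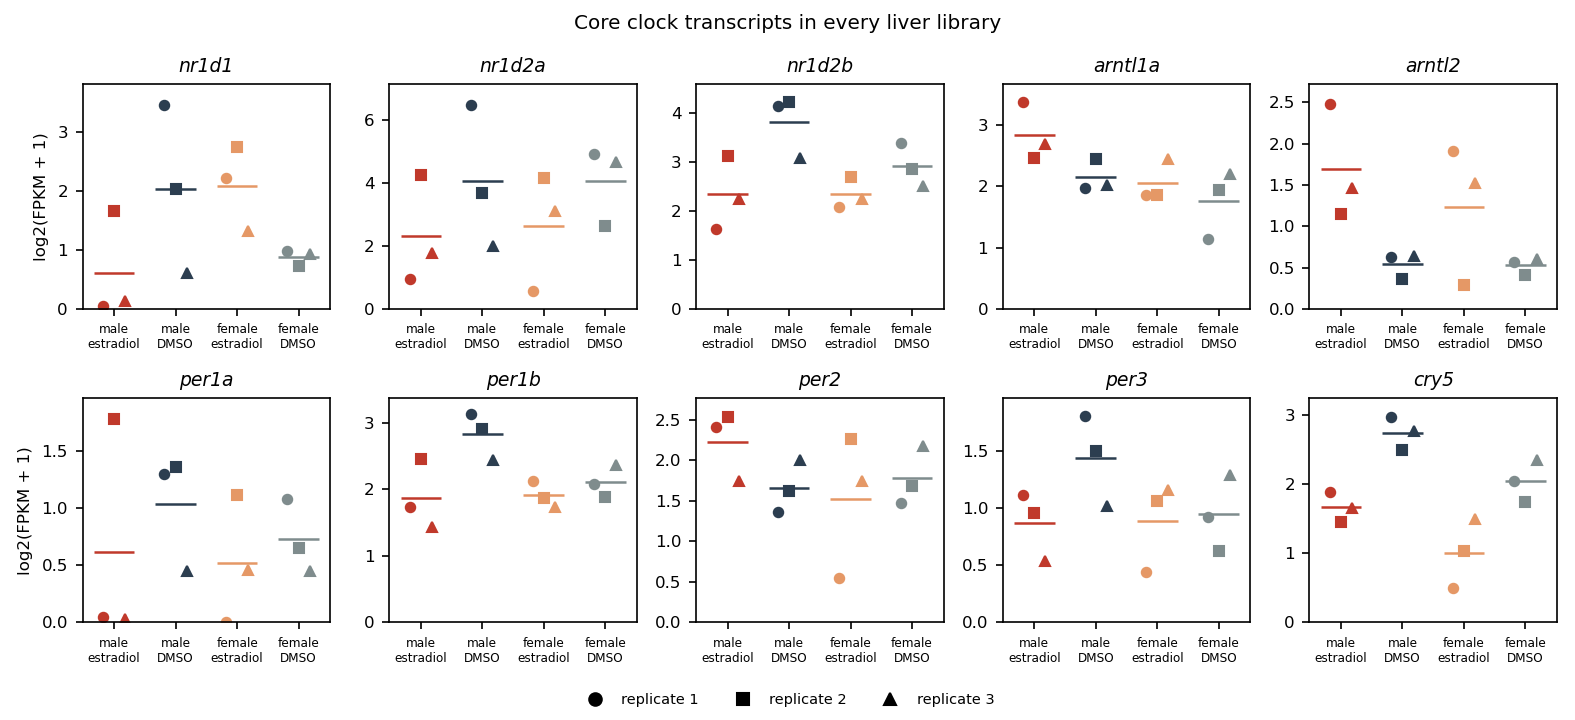
Level of each of the 10 core clock transcripts, as log2(FPKM + 1) on the vertical axis, in the 3 libraries of each group; circles, squares and triangles are replicates 1, 2 and 3 and horizontal lines are group means. cry5 is lower in every estradiol library than in any DMSO library of the same sex, and nr1d2a ranges from 2.96 to 88.7 FPKM within male DMSO.

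Of the 10 members, cry5 was the 1 that passed the test, in the effect of estradiol averaged over both sexes. cry5 stood at 2.69, 1.74 and 2.14 FPKM in male estradiol replicates 1 to 3, against 6.80, 4.61 and 5.82 FPKM in male DMSO. In females it stood at 0.410, 1.04 and 1.83 FPKM under estradiol, against 3.12, 2.35 and 4.10 FPKM under DMSO. The estradiol and DMSO libraries did not overlap in either sex. Without overlap, 11.4% of all genes tested were lower with estradiol in males and 18.8% in females. The share lower in both sexes was not computed. Averaged over both sexes, cry5 fell by 1.06 on the log2(FPKM + 1) scale (SE 0.24, 95% interval -1.59 to -0.53, limma adjusted p = 0.0195), a scale that understates the change of low genes. Within 1 sex the change was of like size but did not pass the threshold of 0.05, with -1.08 in males (SE 0.34, adjusted p = 0.0944) and -1.04 in females (SE 0.34, adjusted p = 0.122), and the difference between the sexes was 0.04 (95% interval -1.01 to 1.09).

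The averaged effect called 1 of the 10 members, beside 11.7% of all genes tested, so the members' count is near the background. An unadjusted p under 0.05 was found for 4 members, beside 33.5% of all genes. Without replicates 1 and 3 of both estradiol groups, the 4 oocyte-rich libraries, the averaged cry5 change was -1.15 (adjusted p = 0.0392). That fit, here and for other genes, keeps 1 library in each estradiol group, which is assumed to vary like the DMSO libraries. The call ended without male DMSO replicate 1 (adjusted p = 0.0596), female DMSO replicate 1 (0.0522) or female DMSO replicate 3 (0.0522), without the 2 intestine-rich female DMSO libraries, replicates 1 and 2 (0.101), or with the oocyte (0.131) or pancreas (0.9996) marker level as a covariate, while the change stayed between -0.93 and -1.49 over all alternatives run. Summed pancreas markers were lower with estradiol in both sexes, as given above, so that covariate and the treatment vary together. With it, 1 of the 9190 genes tested was called in the averaged effect, against 1078 without it. Summed oocyte markers did not overlap between the male groups, as given above, so the oocyte covariate also varies with the treatment in males.

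per2, the other light-driven member, which encodes a PER repressor, did not pass the test. It stood at 4.34, 4.81 and 2.35 FPKM in male estradiol and 1.57, 2.08 and 3.02 FPKM in male DMSO. In females it stood at 0.463, 3.80 and 2.36 FPKM under estradiol and 1.78, 2.2 and 3.51 FPKM under DMSO. The groups overlapped in both sexes, and the averaged difference was 0.16 (95% interval -0.53 to 0.84, adjusted p = 0.759).

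Both BMAL members had higher means in male estradiol livers than in male DMSO livers, without passing the test. arntl1a, for a BMAL partner of CLOCK, had 9.37, 4.51 and 5.44 FPKM in male estradiol, against 2.91, 4.45 and 3.07 FPKM in male DMSO. The male groups did not overlap, though male estradiol replicate 2 lay just above male DMSO replicate 2. Without overlap, 18.5% of all genes tested were higher in male estradiol. The log2 change was 0.70 (SE 0.39, adjusted p = 0.264). It was 0.32 without the 4 oocyte-rich estradiol libraries and 0.44 with the oocyte covariate (adjusted p = 0.748), and ran from -0.35 to 0.89 over all alternatives. In females arntl1a had 2.61, 2.64 and 4.43 FPKM under estradiol and 1.21, 2.83 and 3.58 FPKM under DMSO, with overlap (log2 change 0.29, SE 0.39, adjusted p = 0.700). By group mean the order was male estradiol (6.44 ± 2.58 FPKM, SD, n = 3), male DMSO (3.47 ± 0.849), female estradiol (3.23 ± 1.04) and female DMSO (2.54 ± 1.21), and the last 3 overlapped.

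arntl2, a second BMAL gene, had 4.57, 1.21 and 1.76 FPKM in male estradiol, against 0.542, 0.282 and 0.560 FPKM in male DMSO, and in females 2.75, 0.218 and 1.88 FPKM under estradiol, against 0.479, 0.327 and 0.522 FPKM under DMSO. It was high in 5 of 6 estradiol libraries, and female estradiol replicate 2 was the lowest of all 12. The log2 change was 1.16 in males (SE 0.44, adjusted p = 0.132), 0.71 in females (SE 0.44, adjusted p = 0.396) and 0.93 averaged over both (SE 0.31, adjusted p = 0.0672). The averaged change passed without male estradiol replicate 2 (1.07, adjusted p = 0.0213) or female estradiol replicate 2 (1.17, adjusted p = 0.0202). Each is the lowest estradiol library of its sex for arntl2, so leaving it out raises the change. Those fits called 2935 and 1593 of the 9190 genes, against 1078 with all libraries. As given above, arntl2 was tested only because it is high under estradiol, so these passes are not independent of that choice. On the log2(FPKM + 1) scale, oocyte markers averaged 6.77, 1.78 and 5.76 over the male estradiol libraries, and 6.89, 0.21 and 4.72 over the female estradiol libraries, in order of replicate. Female estradiol replicate 2 was thus lowest, and male estradiol replicate 2 second lowest, of the 6 estradiol libraries for both arntl2 and the oocyte list. Over the DMSO libraries oocyte markers averaged 0.19, 0.02 and 0.20 in males and 1.80, 3.47 and 0.83 in females. Female DMSO replicate 2 was thus above male estradiol replicate 2 for the oocyte list but below it for arntl2. Without the 4 oocyte-rich estradiol libraries the averaged change of arntl2 was 0.18. With the oocyte marker level as a covariate, which in males did not overlap between treatments, it was 0.25 (adjusted p = 0.733). With the pancreas covariate it was -0.40 (adjusted p = 0.9996).

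The REV-ERB genes encode haem-sensing receptors that repress the arntl genes. Of the members, nr1d2a and nr1d1 varied most between replicates on the log2(FPKM + 1) scale. nr1d2a had 0.925, 18 and 2.42 FPKM in male estradiol and 88.7, 11.7 and 2.96 FPKM in male DMSO. In females it had 0.483, 16.8 and 7.70 FPKM under estradiol and 29.0, 5.26 and 24.4 FPKM under DMSO. Male DMSO replicate 1 was 30.0 times male DMSO replicate 3, and the largest ratio within a group was 34.8, in female estradiol. The log2 changes of -1.72 in males (95% interval -4.42 to 0.97) and -1.46 in females (-4.15 to 1.24) therefore carried intervals several log2 units wide (adjusted p = 0.390 and 0.533). Without the 4 oocyte-rich estradiol libraries the averaged change of nr1d2a was 0.14 (adjusted p = 0.957), against -1.59 with all libraries (SE 0.87, adjusted p = 0.221).

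nr1d1 had 0.0370, 2.16 and 0.0972 FPKM in male estradiol and 9.97, 3.12 and 0.523 FPKM in male DMSO, so the male groups overlapped (log2 change -1.42, SE 0.66, adjusted p = 0.191). In females it had 3.64, 5.69 and 1.5 FPKM under estradiol, against 0.973, 0.663 and 0.916 FPKM under DMSO, with no overlap (log2 change 1.21, SE 0.66, adjusted p = 0.344). The estimates were of opposed sign. The effect in females minus that in males was 2.63 (SE 0.94, 95% interval 0.59 to 4.67), with an unadjusted p of 0.0157 and an adjusted p of 0.349 by limma, so it did not pass the test. Without the 4 oocyte-rich estradiol libraries the change was -0.37 in males and 1.86 in females, still of opposed sign. With the oocyte covariate it was -0.54 in males (adjusted p = 0.802) and 1.57 in females (adjusted p = 0.180). Over all alternatives run it ran from -2.79 to 0.88 in males, against 0.89 to 3.80 in females. The opposed signs thus did not hold in every fit. The effect in females minus that in males ran from 1.92 to 4.58 over the alternatives and passed in 0 of them.

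nr1d2b had 2.11, 7.71 and 3.74 FPKM in male estradiol, against 16.5, 17.8 and 7.48 FPKM in male DMSO, and male estradiol replicate 2 overlapped male DMSO replicate 3 by a small margin. In females it had 3.23, 5.46 and 3.75 FPKM under estradiol and 9.41, 6.18 and 4.64 FPKM under DMSO. The log2 change was -1.48 in males (SE 0.46, adjusted p = 0.0904), -0.57 in females (SE 0.46, adjusted p = 0.515) and -1.02 averaged (SE 0.33, adjusted p = 0.0609). With quantile normalization or median-of-ratios scaling the averaged change passed the threshold (adjusted p = 0.0487 and 0.0466). It also passed without male estradiol replicate 2 (-1.22, adjusted p = 0.0124), a fit that called 2935 of all 9190 genes. It was -0.45 without the 4 oocyte-rich libraries (adjusted p = 0.522), -0.56 with the oocyte covariate (adjusted p = 0.514) and 0.31 with the pancreas covariate (adjusted p = 0.9996).

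The remaining period genes did not pass the test in any comparison of all libraries. per1b had 2.34, 4.51 and 1.69 FPKM in male estradiol and 7.73, 6.52 and 4.40 FPKM in male DMSO, where male estradiol replicate 2 just exceeded male DMSO replicate 3 (log2 change -0.95, SE 0.35, adjusted p = 0.129). In females per1b was closer between groups, with 3.37, 2.64 and 2.34 FPKM under estradiol and 3.22, 2.69 and 4.13 FPKM under DMSO (log2 change -0.20, SE 0.35, adjusted p = 0.788). The averaged change was -0.57 (SE 0.25, adjusted p = 0.135). It passed without male estradiol replicate 2 (-0.72, adjusted p = 0.0375), a fit that called 2935 of all 9190 genes. It was -0.30 without the 4 oocyte-rich libraries (adjusted p = 0.549), -0.38 with the oocyte covariate (adjusted p = 0.619) and 0.26 with the pancreas covariate (adjusted p = 0.9996). per3 ran from 0.450 to 1.17 FPKM in male estradiol, 1.03 to 2.5 in male DMSO, 0.358 to 1.24 in female estradiol and 0.539 to 1.46 in female DMSO.

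per1a divided the estradiol libraries. It had 0.0324, 2.45 and 0.0191 FPKM in male estradiol, against 1.47, 1.57 and 0.366 FPKM in male DMSO, and in females it was listed at 0 in estradiol replicate 1 with 1.16 and 0.376 FPKM in replicates 2 and 3, against 1.11, 0.573 and 0.365 FPKM in female DMSO. Replicate 2 was the highest estradiol library of each sex. nr1d1, nr1d2a, nr1d2b and per2 were likewise highest in estradiol replicate 2 of each sex, while per1b, per3, arntl1a, arntl2 and cry5 were not. Those libraries had the lowest oocyte marker levels of their group, given above. Without the 4 oocyte-rich libraries the averaged change of per1a was 0.57 (adjusted p = 0.314), against -0.31 with all libraries (SE 0.34, adjusted p = 0.556).

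**Figure D2:**
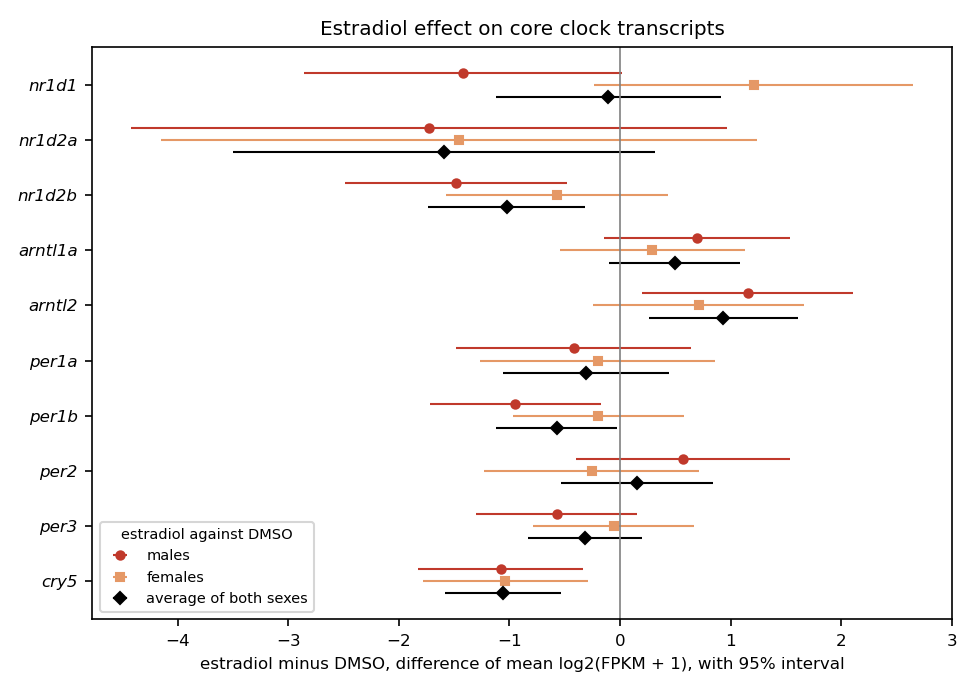
Estradiol minus DMSO difference in mean log2(FPKM + 1) on the horizontal axis for each clock gene, in males (circles), in females (squares) and averaged over both (diamonds), with 95% intervals from the limma fit. The averaged interval of cry5 runs from -1.59 to -0.53, and the male and female points of nr1d1 lie on opposite sides of 0, at -1.42 and 1.21.

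In the comparison within males, 0 of 10 members passed the threshold by limma, beside 3.79% of all genes tested, and 4 had an unadjusted p under 0.05, beside 26.9% of all genes. Of the 10, 2 were higher and 1 lower in male estradiol with no overlap, beside 18.5% and 11.4% of all genes (30.0% in either direction). The members' median log2 change was -0.76 and that of all genes was 0.21. Quantile normalization moved the median of all genes to -0.05 and called 1 member, cry5 (log2 change -1.47, adjusted p = 0.0157). Without male estradiol replicate 2, 3 members passed: per1b (log2 change -1.24, adjusted p = 0.0271), nr1d2b (-1.88, 0.0151) and arntl2 (1.43, 0.0411). That fit called 2220 of the 9190 genes tested, against 348 with all libraries.

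In the comparison within females, 0 of 10 members passed by limma, beside 2.73% of all genes, and 1, cry5, had an unadjusted p under 0.05, beside 19%. With no overlap, 1 member was higher in female estradiol, beside 9.98% of all genes, and 1 was lower, beside 18.8% (28.8% in either direction). The members' median log2 change was -0.20, against -0.08 for all genes.

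The sexes were also compared directly. In female against male DMSO livers 0 of 10 members passed by limma, beside 0.555% of all genes (0.239% higher and 0.316% lower), and 0 had an unadjusted p under 0.05, beside 11.5%. cry5 and per1b were lower in female DMSO with no overlap, 2 of 10 members beside 12.2% of all genes, and 0 were higher, beside 18.6% (30.8% in either direction). The log2 differences were -0.70 for cry5 (SE 0.34, adjusted p = 0.477) and -0.72 for per1b (SE 0.35, adjusted p = 0.479). In female against male estradiol livers 0 of 10 passed by limma, beside 0.109% of all genes (0.0762% higher and 0.0326% lower), and 1, nr1d1, had an unadjusted p under 0.05, beside 11.1%. With no overlap 0 members were higher in female estradiol, beside 2.62% of all genes, and 1 was lower, beside 9.68% (12.3% in either direction). That gene was arntl1a (log2 difference -0.79, SE 0.39, adjusted p = 0.463). The interaction called 0 of 10 members by limma, beside 0.261% of all genes (0.163% higher and 0.0979% lower), and the unadjusted p under 0.05 was that of nr1d1, 1 of 10 beside 10.7%.

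To place each library on the axis between the arms of the loop, the mean log2 level of 6 activator genes (arntl1a, arntl1b, arntl2, clocka, clockb, npas2) was subtracted from that of 6 REV-ERB and PER genes (nr1d1, nr1d2a, nr1d2b, per1a, per1b, per3). This balance index is a description with no test, and 0 on it marks no state of the clock. Its activators arntl2 and clocka reached 1 FPKM in 0 DMSO libraries. They entered only through estradiol libraries, which favours a lower index under estradiol. The index leaves out per2, whose log2 change in males was 0.57, while all 6 REV-ERB and PER genes used had a negative one. It was -0.58, 0.75 and -0.35 in male estradiol replicates 1 to 3, against 2.26, 1.55 and 0.65 in male DMSO. In females it was 0.49, 1.11 and 0.25 under estradiol, against 1.27, 0.63 and 0.82 under DMSO. Male estradiol replicates 1 and 3 were the libraries below 0. Male estradiol replicate 2 lay within the range of male DMSO, and the female groups overlapped. Without the 4 oocyte-rich libraries, the single estradiol libraries left stood at 0.75 in males and 1.11 in females. With per2 added, an alternative chosen after seeing the data, male estradiol replicates 1 and 3 stood at -0.36 and -0.25 and remained the libraries below 0.

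**Figure D3:**
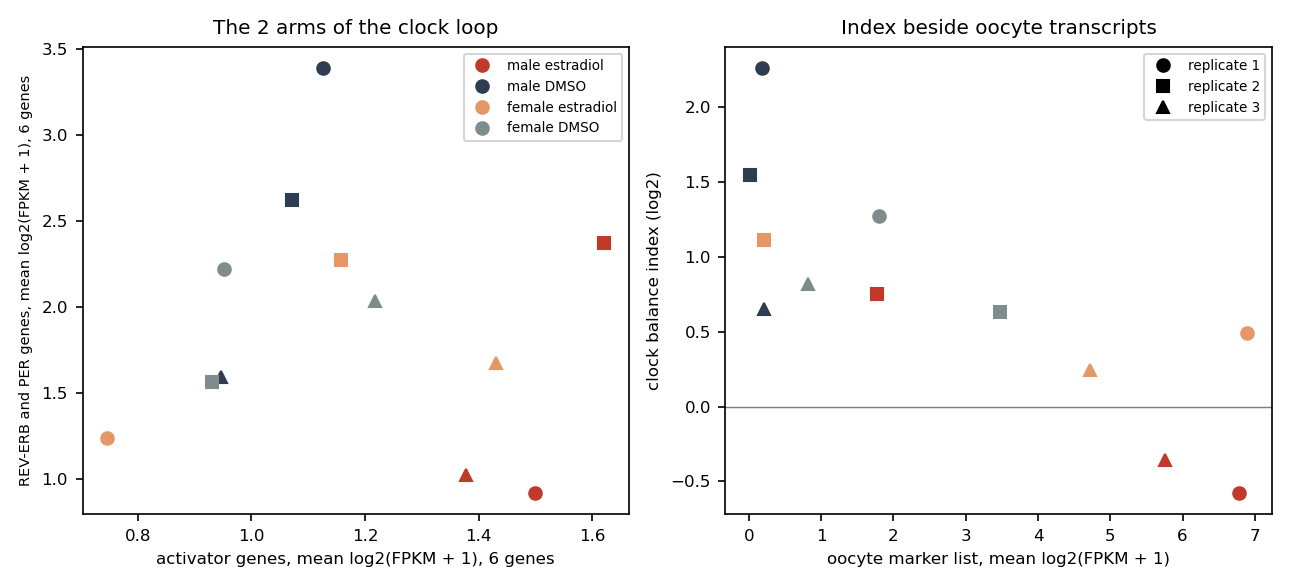
Left, mean log2(FPKM + 1) of 6 REV-ERB and PER genes against that of 6 activator genes, 1 point per library; right, their difference, the clock balance index, against the mean log2 level of the oocyte marker list. Colours are groups and shapes replicates. The libraries below 0, male estradiol replicates 1 and 3 at -0.58 and -0.35, have oocyte levels of 6.77 and 5.76. The other oocyte-rich libraries, female estradiol replicates 1 and 3 at 0.49 and 0.25, lie above 0 with oocyte levels of 6.89 and 4.72. The activators arntl2 and clocka passed the filter only through estradiol libraries, which favours a lower index there.

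Whether clock genes deviate together from their group means was examined in 6 pairs over the 12 libraries, with group means removed and values permuted within groups (exact, two-sided). nr1d1 and nr1d2a, both REV-ERB genes, had Pearson's r = 0.76 (exact permutation p = 0.0340, adjusted over the 6 pairs 0.204) and Spearman's rho = 0.71 (p = 0.0494, adjusted 0.148, exact permutation). Without the 2 libraries farthest from the median of nr1d1, male DMSO replicates 1 and 3, r was 0.57. nr1d1 and arntl1a, of opposed arms, had r = -0.39 (exact permutation p = 0.184, adjusted 0.362) and rho = -0.64 (p = 0.0231, adjusted 0.139, exact permutation), and r = -0.59 without the same 2 libraries. The other 4 pairs had r between 0.35 and 0.63, all with an adjusted exact permutation p of 0.362. They were per3 with arntl1a (r = 0.35, rho = 0.38, r = 0.29 without the farthest 2), nr1d1 with per3 (0.44, 0.26 and 0.02), per1a with per1b (0.63, 0.59 and 0.45) and per2 with cry5 (0.49, 0.46 and 0.26). For rho the exact permutation p of these 4 pairs was 0.259, 0.521, 0.130 and 0.261, adjusted to 0.313, 0.521, 0.259 and 0.313. No pair passed the threshold in either measure.

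The spread between replicates differed among the members. The SD of log2(FPKM + 1) around the group means was 1.81 for nr1d2a, higher than that of 97.6% of all genes tested, and 0.92 for nr1d1, higher than 83.2%. It was 0.33 for cry5, 0.36 for per1b and 0.36 for per3, higher than 10.7%, 13.5% and 13.9% of genes. The median over the 10 members was 0.55, beside 0.58 over all genes tested. On this scale, replicate spread was wide for particular REV-ERB genes rather than for the members in general. The scale compresses low values. As ratios of FPKM, per1a differed 128-fold within male estradiol and arntl2 12.6-fold within female estradiol.

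**Figure D4:**
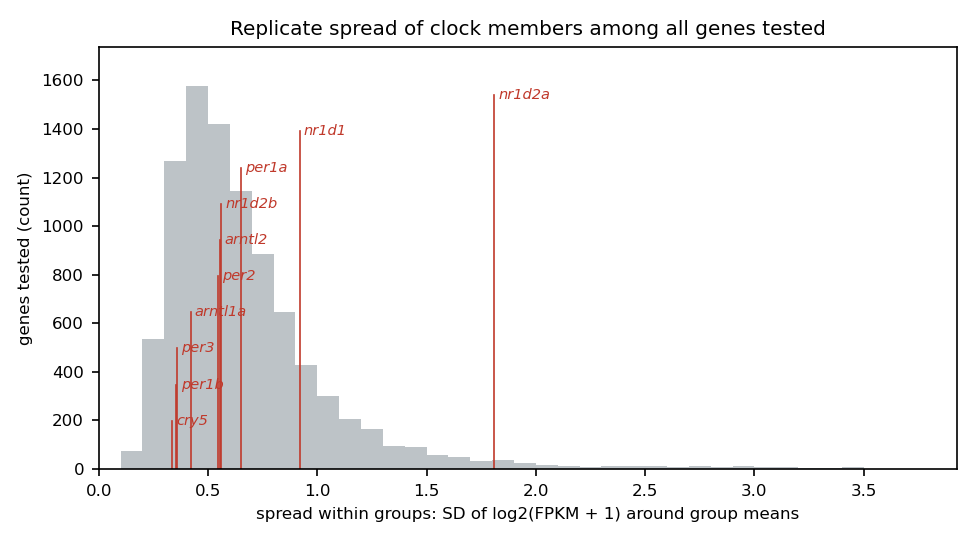
Distribution over the 9190 genes tested of the SD of log2(FPKM + 1) around group means (horizontal axis, log2 units; vertical axis, number of genes), with red lines for the 10 clock members, whose heights only keep the names apart. nr1d2a lies at 1.81 and cry5 at 0.33.

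The rest of the pathway was described with 36 other clock genes that passed the filter. Averaged over both sexes, 3 of the 36 fell and 1 rose, beside 7.23% and 4.5% of all genes, and the median was -0.31 against 0.05 for all genes. In males 1 of 36 fell and 0 rose, beside 2.91% and 0.881% of all genes. In females 1 of 36 fell and 0 rose, beside 2.24% and 0.49%. In female against male DMSO, female against male estradiol and the interaction, 0 of 36 passed by limma, and 1, 4 and 4 had an unadjusted p under 0.05, beside 11.5%, 11.1% and 10.7% of all genes.

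rorab encodes a ROR receptor, which activates arntl genes through the site that REV-ERB also binds. It had 1.23, 4.33 and 2.57 FPKM in male estradiol, against 15.7, 15.4 and 9.88 FPKM in male DMSO, and 1.92, 1.64 and 3.91 FPKM in female estradiol, against 7.11, 5.79 and 8.53 FPKM in female DMSO. The estradiol libraries lay below the DMSO libraries in both sexes, as did those of 11.4% of all genes in males and 18.8% in females. rorab fell by 2.04 in males (SE 0.40, adjusted p = 0.0155) and by 1.65 averaged over both sexes (SE 0.28, adjusted p = 0.00481), with -1.26 in females (SE 0.40, adjusted p = 0.112). The male call ended without male DMSO replicate 1 (adjusted p = 0.0900) or 2 (0.0781), male estradiol replicate 1 (0.0551) or the 4 oocyte-rich libraries (log2 change -1.43, adjusted p = 0.0675). The averaged call of rorab ended without the 2 intestine-rich libraries (-1.77, adjusted p = 0.0505) and with the oocyte (-1.44, 0.0527) or pancreas (-1.48, 0.9996) covariate, with changes close to that in all libraries.

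hlfa encodes a PAR bZIP factor, a class of clock output regulators that bind D-box sites. It had 3.41, 7.93 and 5.53 FPKM in male estradiol, against 29.5, 19.9 and 13.4 FPKM in male DMSO, and 2.33, 7.98 and 7.90 FPKM in female estradiol, against 27.9, 21.2 and 20.4 FPKM in female DMSO. No library of the 6 with estradiol reached the lowest of the 6 with DMSO. Without overlap, 11.4% of all genes were lower in males and 18.8% in females, and the share over both sexes was not computed. hlfa fell by 1.81 averaged over the sexes (SE 0.33, adjusted p = 0.00645), with -1.72 in males (adjusted p = 0.0635) and -1.90 in females (adjusted p = 0.0537). Without male estradiol replicate 2 both passed (adjusted p = 0.0182 and 0.0267), in a fit that called 2220 of all 9190 genes in males and 704 in females. The averaged call ended without the 2 intestine-rich libraries (-1.73, adjusted p = 0.0905) and with the oocyte (-1.27, 0.0940) or pancreas (-1.02, 0.9996) covariate. Of the 9 PAR bZIP and NFIL3 genes tested, hlfa was the 1 that passed, beside 7.23% of all genes that fell. A negative averaged change was found for 8 of the 9, beside 4340 of the 9190 genes tested (median -0.78). tefa, of the same class, had an averaged log2 change of -0.78 (SE 0.25, adjusted p = 0.0599).

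bhlhe40 encodes DEC1, a repressor that competes with CLOCK and BMAL for their binding sites. It had 5.79, 9.5 and 22 FPKM in female estradiol, against 67.1, 93.8 and 147 FPKM in female DMSO, and fell by 3.06 (SE 0.66, adjusted p = 0.0341). In males it had 18.6, 128 and 31.9 FPKM under estradiol, against 60.8, 79.1 and 88.3 FPKM under DMSO, where male estradiol replicate 2 lay above all 3 (log2 change -0.80, SE 0.66, adjusted p = 0.452). The male change was 0.76 without the 4 oocyte-rich libraries (adjusted p = 0.370) and 0.22 with the oocyte covariate (adjusted p = 0.929). The averaged fall was -1.93 (SE 0.46, adjusted p = 0.0240), and the difference between the sexes was -2.26 (SE 0.93, adjusted p = 0.406). The female call held without male estradiol replicate 1 or 2 or female estradiol replicate 3. It ended without any other single library (adjusted p of 0.0510 to 0.105). It also ended with no filter (0.0548), quantile normalization (0.0723), median-of-ratios scaling (0.0542) or the pancreas covariate (-2.55, 0.864). With the oocyte covariate it held (-2.64, 0.0357). The averaged call ended without any 1 male DMSO library, female DMSO replicate 3 or male estradiol replicate 3 (adjusted p of 0.0527 to 0.0595). It also ended with the oocyte (-1.21, 0.281) or pancreas (-1.45, 0.9996) covariate. Fits without the 4 oocyte-rich or the 2 intestine-rich libraries leave 1 library in a group, so their changes are given without a call. The averaged change was -1.23 without the 4 oocyte-rich libraries and -2.23 without the 2 intestine-rich libraries. The female change was -3.23 and -3.65 in the same order.

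timeless, whose vertebrate product acts at replication forks and has also been linked to the clock, rose by 0.90 averaged over the sexes (SE 0.25, adjusted p = 0.0413). The log2 change was 1.34 in males (SE 0.36, adjusted p = 0.0619) and 0.47 in females (SE 0.36, adjusted p = 0.492). Without the 4 oocyte-rich libraries the averaged change was 1.02. timeless had 9.54, 5.18 and 3.68 FPKM in male estradiol, against 1.57, 1.79 and 1.63 FPKM in male DMSO. In female estradiol it had 3.27, 5.10 and 3.20 FPKM, with replicate 3 just below the highest of 1.80, 2.5 and 3.23 FPKM in female DMSO. The call ended with quantile normalization (adjusted p = 0.0846), no filter (0.0614) or a filter of 5 FPKM (0.0550), without the 2 intestine-rich libraries (0.240), and with the oocyte (0.150) or pancreas (0.9996) covariate, as it did on leaving out any 1 library other than male estradiol replicates 2 and 3 and female estradiol replicate 1 (adjusted p of 0.0599 to 0.107).

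**Figure D5:**
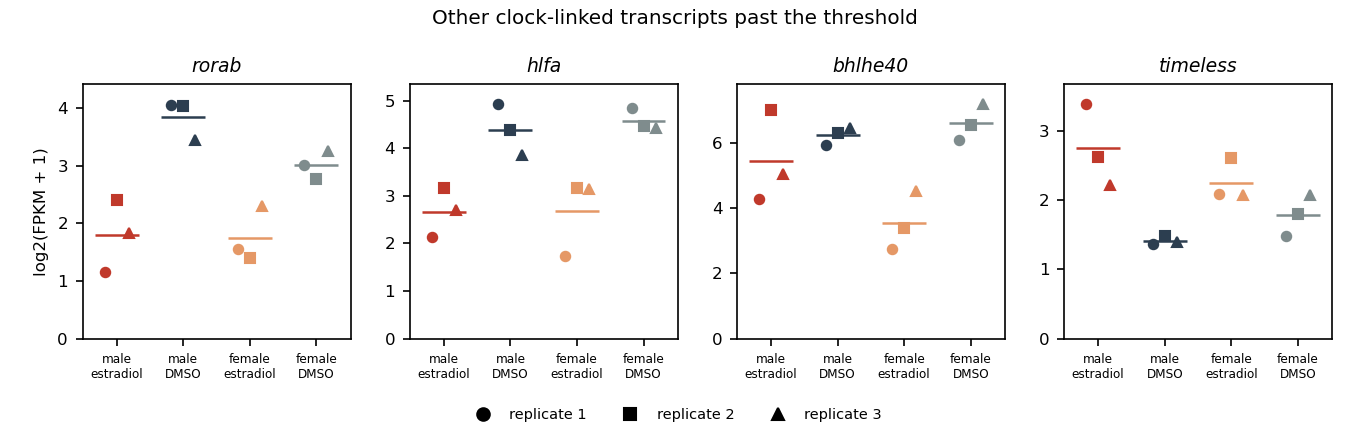
Level of the 4 other clock-linked transcripts past the threshold, as log2(FPKM + 1), in the 3 libraries of each group; shapes are replicates and lines group means. hlfa is lower in all 6 estradiol libraries than in any DMSO library, while male estradiol replicate 2 is the highest male library for bhlhe40.

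The lists of clock genes by role, which hold members and other genes, gave no further calls. Their counts for the averaged effect stand beside 11.7% of all genes tested that passed. Of the 6 activator genes 0 passed in any comparison by limma, with a median averaged change of 0.37. An unadjusted p under 0.05 for the averaged effect was found for 2 of the 6, beside 33.5% of all genes. These were arntl2 and clocka, a CLOCK gene (averaged change 0.59, SE 0.25, adjusted p = 0.121). Like arntl2, clocka passed the filter only through estradiol libraries, with 1 FPKM or more in 1 male estradiol, 2 female estradiol and 0 DMSO libraries. Of the 9 PER and CRY repressor genes 0 passed, with a median of -0.31. An unadjusted p under 0.05 was found for 1 of the 9, beside the same 33.5%. cry1a, a light-driven cryptochrome, had an averaged change of -0.52 (SE 0.29, adjusted p = 0.231). Of the 7 REV-ERB and ROR genes rorab was the 1 that passed. In the list of 9 genes that holds the clock kinases and ligases, timeless, which is neither, was the 1 that passed. csnk1db, a casein kinase gene, had 1.34 in males (SE 0.40, adjusted p = 0.0820). Of the 2 DEC genes tested, bhlhe40 passed. Of the 6 light-driven genes cry5 was the 1 that passed averaged over the sexes, with a list median of -0.18, and cry4, another cryptochrome gene, had -1.61 in females (SE 0.39, adjusted p = 0.0521).

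The genes whose pattern over the 12 libraries was most like that of 3 members were listed by Pearson's r, as a description of the same libraries. Closest to per3 was insrb, an insulin receptor gene, with r = 0.94 over the 12 libraries and 0.91 with group means removed, followed by inpp5f, mapk14b, cbx6a and kdm2ba (0.83 to 0.85). The lowest r with per3 was that of lhfpl2a (-0.83). Closest to arntl1a were abi2b, cdc14b, plekhf2, igf2bp3 and plscr3b (0.89 to 0.91). The lowest r with arntl1a were those of slc25a26, psma6b, cox10 and the ribosomal protein genes rpl19 and rps27a (-0.91 to -0.86). For nr1d1 the values were lower, at most 0.86, for creg1, followed by pabpc1b, mut, tgm2b and cthl, and at lowest -0.81, for tor2a.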

How the data were processed

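Reads were trimmed with cutadapt, aligned with TopHat2 2.0.11 and quantified with Cufflinks 2.2.1 on danRer7, per the submitters' processing notes; libraries were made with a directional kit, per the labels' protocols. The gene annotation is not given in the sources used here. The deposited table holds 1 value per gene symbol and library, taken here as FPKM because Cufflinks gives that unit and the header names none. Whole fragments could not be recovered: at most 1.45% of 1103 low genes fell in one 0.01-wide bin of the log2 ratio between 2 libraries. Depth is therefore unknown, and no counting interval is given.

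The 9190 genes reaching 1 FPKM in 3 or more of the 12 libraries were tested. log2(FPKM + 1) was fitted with 4 group means in limma 3.58.1 (R 4.3.3, eBayes with trend), with Benjamini-Hochberg adjustment over all genes tested and a threshold of 0.05. Contrasts were estradiol against DMSO in each sex and averaged, female against male under each treatment, and the interaction. The fit was run on simulated data with changes planted in male estradiol. There every gene had the same spread and independent noise, unlike these data, so it does not show how the fit behaves on these libraries. Correlations were tested by exact permutation within groups. Members and lists were chosen with earlier results of these data known. Every member was named, and of the other clock genes those past the threshold in any contrast and, for lists with none, some of the 3 with the smallest p; clone names were left out of the lists of like genes. Libraries were grouped by title and matched to columns by library number. Of the table's symbols, 11801 are current in RefSeq and 14211 are current or synonyms. Tables used Python 3.11.15 with numpy 2.4.6, scipy 1.17.1 and pandas 2.3.3, and figures matplotlib 3.10.9. Alternatives covered the pseudocount (0.1), filter (none, 5 FPKM), normalization, samples in the fit, replicate block, left-out libraries, marker covariates and, added after seeing the data, a balance index with per2.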

Additional observations from a re-analysis of the deposited data

How the results depend on the processing

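Whether the replicate numbers pair the libraries was not settled. Over 18 same-numbered pairs the correlation of deviations from group means ran from -0.43 to 0.57 and passed 0.1 in 4. Between the male and female estradiol libraries it was 0.49 for number 1, 0.57 for number 2 and 0.009 for number 3. Where numbers 1 and 2 were crossed between these groups it was -0.53 and -0.52. With the replicate block the averaged effect called 2 members (cry5 and arntl2) in place of 1, and timeless was no longer called (adjusted p = 0.0535). For the members, quantile normalization called 1 within males and 2 averaged over the sexes, and median-of-ratios scaling 2 averaged. The averaged count was 0 with a filter of 5 FPKM, which removed cry5 from the genes tested, without the 2 intestine-rich female DMSO libraries, and with the oocyte or pancreas marker level as a covariate. Leaving out 1 library gave 0 to 3 members within males, with 3 without male estradiol replicate 2. It gave 0 to 4 averaged, with 4 without male estradiol replicate 2, 2 without female estradiol replicate 2, and 0 without male DMSO replicate 1 or female DMSO replicate 1 or 3. It gave 0 in the other 4 comparisons. Of the 9190 genes tested, the fit without male estradiol replicate 2 called 2220 within males and 2935 averaged. With all libraries these counts were 348 and 1078.

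For the other 36 clock genes within males, the count of 1 became 2 with a filter of 5 FPKM or median-of-ratios scaling. It became 0 when fitted on males only, without the intestine-rich libraries or with either covariate. Leaving out 1 library gave 0 to 8. It gave 8 without male estradiol replicate 2, a fit that called 2220 of all 9190 genes, and 3 without female estradiol replicate 1. It gave 0 without male DMSO replicate 1 or 2 or male estradiol replicate 1. Within females the count of 1 became 0 with no filter, quantile normalization, median-of-ratios scaling, without the intestine-rich libraries or with the pancreas covariate, 3 with a filter of 5 FPKM, 2 without the 4 oocyte-rich libraries, and 0 to 3 without 1 library (3 without male estradiol replicate 1 or 2). Averaged, the count of 4 became 0 without the intestine-rich libraries or with either covariate. Without 1 library the averaged count became 2 to 11 (11 without male estradiol replicate 2, a fit that called 2935 of all 9190 genes). In female against male DMSO it was 1 in a fit of those groups alone or without the oocyte-rich libraries. Without those 4 libraries it was 4 in female against male estradiol and 3 in the interaction, but each estradiol group then holds 1 library, assumed to vary like the DMSO libraries, so these counts compare single libraries. The cause of these changes was not tested.

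The correlation of nr1d1 with nr1d2a ran from 0.62 to 0.91 without 1 library and passed the threshold without female estradiol replicate 1 or 3 (adjusted exact permutation p = 0.0139 each), and that of per2 with cry5 ran from -0.048 to 0.60, with -0.048 without female estradiol replicate 1. The mean balance index became 0.75 in male estradiol and 1.11 in female estradiol without the oocyte-rich libraries, in place of -0.06 and 0.62, and 1.33 in female DMSO with a pseudocount of 0.1, in place of 0.91. No change past the threshold with all libraries had the opposite sign in the same comparison under any alternative run. Among changes that were not past it, many turned. The averaged ones of nr1d2b, per1b and arntl2 turned with the pancreas covariate, a fit that called 1 of the 9190 genes averaged over the sexes. Over all alternatives run, the averaged change ran from -2.11 to 2.82 for nr1d2a, -0.50 to 2.34 for nr1d1 and -1.26 to 1.46 for per1a. It ran from -0.62 to 0.62 for arntl1a, -0.04 to 0.72 for per2 and -0.57 to 0.00013 for per3. Of the members, only cry5 kept the same averaged sign throughout (-1.49 to -0.93). The change of bhlhe40 in males turned without the oocyte-rich libraries and with the oocyte covariate. Depth is unknown, so the precision of low values, such as those of per1a, arntl2, nr1d1 and per3, cannot be given.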

Other observations

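Of the 46 clock genes tested, 8 were listed at exactly 0 in female estradiol replicate 1: per1a, clockb, npas2, cry2b, nr1d4a, rorca, dbpa and dbpb. Each of the other 11 libraries listed 0 or 1 of the 46 at 0. Of all 9190 genes tested, 5.65% were listed at 0 in that library, against 0.588% to 3.19% in the others. cry2b, which encodes a CRY repressor, ran from 4.75 to 11.1 FPKM in the other 11 libraries, and rorca, a ROR gene, from 2.5 to 10.2 FPKM. An exact 0 can be a failed estimate.

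Male estradiol replicate 2 stood apart from replicates 1 and 3 of its group for bhlhe41, which encodes the DEC2 repressor, with 9.85 FPKM against 0.286 and 0.278, and for nfil3, which encodes a repressor at D-box sites, with 25.2 FPKM against 2.08 and 1.24. In male DMSO bhlhe41 ran from 1.85 to 4.52 FPKM and nfil3 from 1.16 to 7.27 FPKM. nfil3-6, a related gene, had 26.5 FPKM in male estradiol replicate 2 against 1.22 and 3.67, with 8.13 to 37.2 FPKM in male DMSO. A like split was seen in female estradiol, with replicate 3 the highest. There bhlhe41 had 2.51 FPKM against 0.0443 and 0.257, nfil3 19.1 against 3.61 and 3.74, and nfil3-6 11.9 against 2.65 and 6.69.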
